A study of Mus musculus with 12 samples.

Results

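The mitochondrial ribosome translates the small set of proteins that the mitochondrial genome encodes, all of them subunits of the respiratory chain and the ATP synthase. Its rRNAs, mt-Rnr1 in the small subunit and mt-Rnr2 in the large subunit, are transcribed inside the organelle, whereas its proteins are encoded in the nucleus, made on cytosolic ribosomes and imported. Liver and brain both depend on mitochondrial respiration, and defects of single mitochondrial ribosomal proteins are a known cause of inherited disease. Mettl5, the gene deleted here, encodes a methyltransferase that modifies the RNA of the small subunit of the cytosolic ribosome.

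The genes described were chosen by name alone, as the protein-coding genes whose symbol is Mrpl or Mrps followed by a number, with pseudogenes left out. Among 55487 genes counted, 83 had such a symbol, 5 of them were pseudogenes, and 78 genes remained, 49 named Mrpl for the large subunit and 29 named Mrps for the small subunit, although Mrps18a and Mrps30 are large subunit proteins. They lie on 17 chromosomes, and the 4 members on chromosome 2, which also carries Mettl5, are at least 41.4 Mb from it. By its symbol the set also holds Mrps36, which is part of the 2-oxoglutarate dehydrogenase complex and is no longer counted as a ribosomal protein.

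Total RNA was sequenced from liver and brain of 6 mice, 3 WT animals (mice B, D and E) and 3 Mettl5 KO animals (mice A, C and F), so that the 12 libraries form 4 groups of 3 and each mouse gave 1 liver and 1 brain library. By the methods of the study, exon 2 of Mettl5 had been flanked by loxP sites in embryonic stem cells of a C57BL/6 by 129S6 hybrid, the line was crossed back to C57BL/6, and a CMV-driven Cre removed the exon, a deletion meant for the whole body and every cell type. The labels call the controls WT, whereas legends of the study differ, some describing the RNA-seq controls as Mettl5+/- and another showing RNA-seq reads of a Mettl5+/+ animal, so WT is used here as the label only. The labels give no sex, age or batch. Reads from Y-linked genes were present in 4 of the 6 mice and nearly absent in mouse E of the WT and mouse F of the KO group.

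Each library held between 14403309 and 21623180 reads assigned to genes, and the members took from 0.141% to 0.191% of them, with a median of 238 to 377 reads per member. Mettl5 itself, in normalised CPM (counts per 1000000 reads), was 14.9, 8.13 and 8.35 in WT liver and 3.85, 3.64 and 4.07 in KO liver. In brain it was 9.09, 5.87 and 5.02 in WT and 3.33, 3.96 and 3.82 in KO. The genotypes did not overlap in either tissue, and the log2 fold changes were -1.44 (SE 0.27) and -0.84 (SE 0.27), though neither passed the edgeR quasi-likelihood test after Benjamini-Hochberg adjustment (adjusted p = 0.383 and 0.373). DESeq2 called the liver difference (adjusted p = 0.00193) and not that in brain (adjusted p = 0.230). Without mouse B the brain value was -0.55. Only 1 exon is removed, the counts are per gene, and by a legend of the study the gene Ssb overlaps Mettl5. Where the remaining reads in KO came from was not tested. The study reports that Mettl5 was undetectable in KO mice by qPCR. The tissues carried their defining markers: the sum over 8 hepatocyte genes was 65778 to 84559 CPM in liver, and the sum over 7 neuron genes was 4044 to 4714 CPM in brain against 11.0 to 20.5 CPM in liver, where Stmn2 had no more than 3 reads in any library.

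Promoters are shown first because the members are scattered over the genome while their products form 1 particle, and because letters recognised by a few widely used factors recurred in them. A RefSeq promoter, 250 bases before to 50 bases after a start on GRCm38.p6, was found for 69 of the 78 members, some with more than 1 start, 75 windows in all. The letters CCGGAAG, bound by ETS factors such as GABP, stood on either strand in 26 of the 75 windows (34.7%), against 8.86% of all 32851 promoters of the table. AAGATGGCG, bound by YY1, was in 8 (10.7% against 1.40%), and GCATGCGC, the core of the NRF1 site, was also in 8 (10.7% against 2.71%). GGGCGG, bound by SP factors, was in 39 (52.0% against 35.7%), and TATAAA was in 5 (6.67% against 13.6%). Windows of the same gene can overlap. Counted by gene, GGGCGG was in 34 of 69 members and 10324 of all 27025 genes, and CCGGAAG in 26 and 2683. The cytosolic ribosomal protein genes held CCGGAAG in 35.6% of 73 windows and the nuclear-encoded respiratory chain genes in 22.5% of 71, so these letters were not found in the members only. A match describes the letters and is not evidence of binding; CCGGAAG and AAGATGGCG can overlap by 3 bases.

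The promoters of Mrps18a (chr17:46110754-46111053) and Mrps27 (chr13:99344536-99344835) are printed because each has an ETS and a YY1 match, that of Mrpl9 (chr3:94443086-94443385) because it has the NRF1 letters on both strands as 1 palindrome, and that of Mrpl14 (chr17:45686099-45686398) because this member differed most between the tissues before an offset for GC content and exon length. All 4 lie on the plus strand and read 5′ to 3′, and capitals mark the matches. The YY1 letters begin 12 bases after the start in Mrps18a and 15 bases after it in Mrps27, with the ETS letters 26 and 48 bases before it. In Mrpl9 the palindrome begins 28 bases before the start. Mrpl14 has no ETS, YY1, NRF1 or TATAAA match but 5 matches to the SP letters.
Mrps18a: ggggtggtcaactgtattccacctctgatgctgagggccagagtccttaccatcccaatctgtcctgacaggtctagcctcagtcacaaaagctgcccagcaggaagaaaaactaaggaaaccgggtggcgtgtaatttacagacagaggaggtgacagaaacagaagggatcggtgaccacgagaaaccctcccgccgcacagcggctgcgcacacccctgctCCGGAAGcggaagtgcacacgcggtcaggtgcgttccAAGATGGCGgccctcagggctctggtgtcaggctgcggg
Mrps27: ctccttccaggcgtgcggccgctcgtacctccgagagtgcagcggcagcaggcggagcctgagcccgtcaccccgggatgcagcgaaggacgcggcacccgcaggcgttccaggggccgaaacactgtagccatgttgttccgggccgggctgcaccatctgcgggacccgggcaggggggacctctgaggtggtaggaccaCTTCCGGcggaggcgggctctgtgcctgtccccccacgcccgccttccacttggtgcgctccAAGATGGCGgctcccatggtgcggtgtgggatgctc
Mrpl9: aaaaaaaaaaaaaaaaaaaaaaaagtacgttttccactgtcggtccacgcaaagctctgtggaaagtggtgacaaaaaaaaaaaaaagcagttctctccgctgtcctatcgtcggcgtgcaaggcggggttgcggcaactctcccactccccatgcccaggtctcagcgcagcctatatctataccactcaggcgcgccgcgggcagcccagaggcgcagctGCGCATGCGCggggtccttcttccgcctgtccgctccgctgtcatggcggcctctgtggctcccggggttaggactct
Mrpl14: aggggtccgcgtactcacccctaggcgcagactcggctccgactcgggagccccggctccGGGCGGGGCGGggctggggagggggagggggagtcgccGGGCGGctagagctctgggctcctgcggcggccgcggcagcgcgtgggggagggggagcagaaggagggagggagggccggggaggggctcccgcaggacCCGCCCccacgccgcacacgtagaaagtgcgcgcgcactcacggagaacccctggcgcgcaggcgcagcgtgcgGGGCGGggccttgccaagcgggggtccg

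Many of the members also share their start region with another gene. In the annotation, 33 of the 78 (42.3%) had a protein-coding gene that started within 1000 bases on the opposite strand, against 10.8% of 21974 protein-coding genes. Among the partners were Mrps11 for Mrpl46, 2 subunits of respiratory complex I (Ndufs6 beside Mrpl36 and Ndufb5 beside Mrpl47), the mitochondrial DNA helicase Twnk beside Mrpl43, and Sars2, a mitochondrial seryl-tRNA synthetase, beside Mrps12.

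Reads were found for 77 of the 78 members in every library, with the fewest for Mrps36 (38 reads in a KO liver library). The exception was Mrpl53, which had 0 reads in all 12 libraries, a count that allows up to 3 reads in each. Its exons on chromosome 6 (83109040 to 83109939) are covered to 88.0% on the same strand by Gm42688, a model to which 0.163 to 0.903 CPM was assigned, and by the default of the counting program reads that fit both genes are counted for neither. Mrpl53 was therefore not tested, and the other 77 passed the filter on low counts in every comparison. Same-strand overlap of more than 10% of the exon length affected 4 other members, Mrps34, Mrps18c, Mrps6 and Mrps24, and Mrpl21, Mrpl22, Mrpl27, Mrpl32, Mrpl41, Mrps18b, Mrps21, Mrps33, Mrps36 and Mrps5 have near-identical copies elsewhere, so the values of these genes are less certain.

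Levels per length, in CPM per kb of exon, spread widely among the proteins of the particle. In WT liver they ran from 0.989 ± 0.182 for Mrpl23 to 66.1 ± 8.97 for Mrpl12 (SD, n = 3), with a median of 10.2, and in WT brain from 0.878 ± 0.0374 for Mrpl23 to 35.2 ± 6.58 for Mrpl18, with a median of 6.54. Mrpl12 is the stalk protein that recruits translation factors and is held by Mrpl10 near Mrpl11. Its level was 71.0, 71.6 and 55.8 in WT liver, 65.9, 67.2 and 68.7 in KO liver, 24.5, 27.2 and 22.9 in WT brain and 28.0, 25.6 and 25.0 in KO brain. The other stalk proteins were lower, with 17.8 ± 2.13 for Mrpl10 and 4.61 ± 0.681 for Mrpl11 in WT liver and 7.18 ± 0.644 and 4.16 ± 0.0891 in WT brain. Both tissues had the order Mrpl12, Mrpl10, Mrpl11, without overlap of the libraries between the first and the others.

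**Figure D1:**
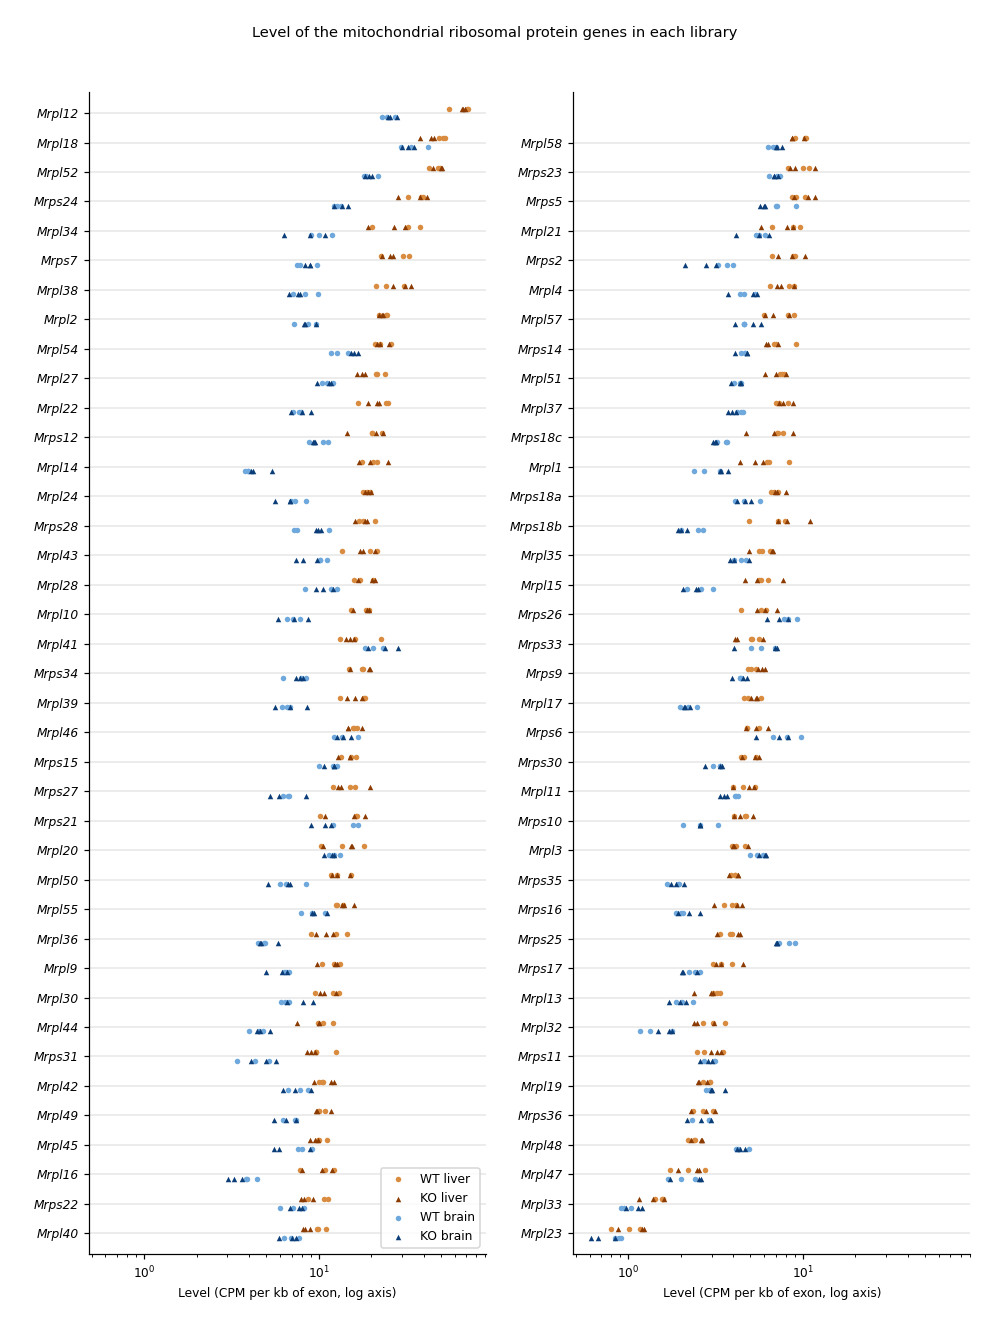
Level of the 77 members with reads, in CPM per kb of exon on a log axis, ordered by their mean in WT liver from the highest at the top of the left panel to the lowest at the bottom of the right panel. Each symbol is 1 library (circles WT, triangles KO; orange and brown liver, light and dark blue brain). The order spans from 66.1 for Mrpl12 to 0.989 for Mrpl23 in WT liver, WT and KO symbols of the same tissue lie together, and most liver symbols lie to the right of the brain symbols.

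The highest members in WT liver were Mrpl12, Mrpl18 (51.3 ± 2.04), Mrpl52 (46.7 ± 3.43), Mrps24 (36.8 ± 3.89) and Mrpl34 (30.2 ± 9.15). In WT brain they were Mrpl18, Mrpl12 (24.9 ± 2.19), Mrpl41 (20.7 ± 2.54), Mrpl52 (19.6 ± 1.94) and Mrps21 (14.9 ± 2.46). Mrpl12 was above Mrpl18 in every WT liver library and below it in every WT brain library. The lowest with reads were Mrpl23, Mrpl33 (1.52 ± 0.0712), Mrpl47 (2.23 ± 0.508) and Mrpl48 (2.33 ± 0.118) in WT liver and Mrpl23, Mrpl33 (0.965 ± 0.0647), Mrpl32 (1.43 ± 0.324) and Mrps35 (1.85 ± 0.155) in WT brain. The exon length counted here is the union of all annotated exons, 4883 bases for Mrpl23, so a gene with long rarely used exons appears low. Across the 77 members the log2 levels of WT and KO correlated with r = 0.992 in liver and 0.986 in brain, and those of WT liver and WT brain with r = 0.841, a description in which each point shares its libraries and its exon length with the others.

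The 3 paralogs that occupy related sites, Mrps18a in the large and Mrps18b and Mrps18c in the small subunit, were similar in WT liver with 6.85 ± 0.305, 6.64 ± 1.55 and 7.34 ± 0.320, and spread in WT brain, with 4.80 ± 0.812, 2.40 ± 0.352 and 3.51 ± 0.233. Mrpl58, a peptidyl-tRNA hydrolase built into the large subunit that releases stalled chains, was 9.91 ± 0.807 in WT liver and 6.71 ± 0.343 in WT brain. Proteins with a bacterial counterpart and those found in mitochondria alone had medians of 10.9 and 10.4 in the large subunit and 7.90 and 8.17 in the small subunit of WT liver. In WT brain these medians were 5.12 and 6.99 in the large and 6.17 and 6.78 in the small subunit.

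Between libraries of the same group the members varied by a median coefficient of variation of 11.1% in WT liver, 12.6% in KO liver, 9.38% in WT brain and 10.5% in KO brain. In liver the members of a library tended to lie on the same side of their means. Relative to each gene's mean over the 6 liver libraries, the members' median deviation was 0.075, 0.119 and -0.101 on the log2 scale in WT mice B, D and E and -0.126, 0.125 and -0.067 in KO mice A, C and F. In KO mouse C 60 of 77 members lay above their mean, while in KO mouse A 17 did. The median over all genes tested stayed between -0.003 and 0.015 in these libraries. Animals of the same genotype thus differed in the members' liver level by more than the genotypes did. In brain the deviations were smaller, with 0.018, 0.036 and -0.015 in WT mice B, D and E and 0.072, -0.076 and -0.014 in KO mice A, C and F; mouse C was highest of the 6 in liver and lowest in brain, and mouse A the reverse.

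**Figure D2:**
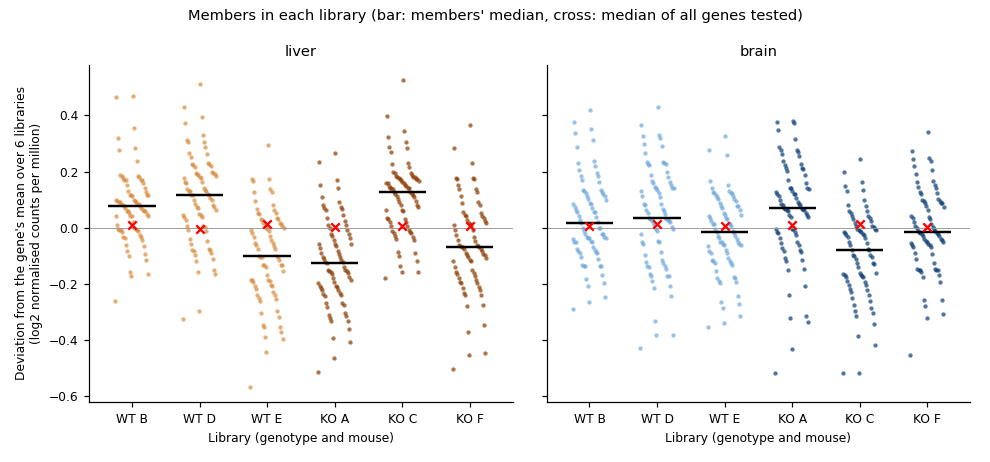
Deviation of each of the 77 tested members (points) from its own mean over the 6 libraries of a tissue, in log2 normalised CPM, by library. Black bars are the members' medians, from -0.126 in KO A to 0.125 in KO C in liver, and red crosses the medians of all genes tested, which stay near 0; in liver 60 of 77 points of KO C and 17 of KO A lie above 0.

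The first comparison asked whether loss of Mettl5 changed the RNA of these genes in liver. No member passed the test: 0 of 77 had an adjusted p under 0.1 in edgeR, where 0% of the 14075 genes tested did, and DESeq2 called none of the members while it called 1.10% of its 15516 genes. The members' median log2 fold change was -0.024, beside -0.002 for all genes, 28 members were higher and 49 lower in KO, and the extremes were -0.46 and 0.37. The sign of this median depended on which mouse was left out. Every one of the 77 had a 95% interval within 1 log2 unit of 0, with a median SE of 0.16. An unadjusted p under 0.05 was found for 3 members (3.90%), beside 7.33% of all genes, and all 3 were lower in KO, beside 4.57% of all genes lower at that level.

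Those 3 were large subunit proteins with bacterial counterparts. Mrpl1, a protein of the mobile stalk on the side opposite to Mrpl12, had 28.2, 22.1 and 21.5 CPM in WT liver and 17.8, 19.9 and 14.7 in KO liver, a difference of -0.46 on the log2 scale (SE 0.17; adjusted p = 0.572 by edgeR). Mrpl27 had 16.7, 19.1 and 16.8 CPM in WT and 12.6, 13.7 and 14.1 in KO, a change of -0.38 (SE 0.13; adjusted p = 0.554, the smallest among the members). Mrpl18 had 58.4, 55.1 and 57.8 CPM in WT and 41.4, 50.3 and 47.7 in KO, with -0.30 (SE 0.12; adjusted p = 0.659). In all 3 the KO libraries lay below the WT libraries without overlap, and none of the changes passed the test.

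Libraries of the genotypes did not overlap in 7 of the 77 members (9.09%), beside 12.9% of all genes tested, and in each of the 7 the KO libraries were the lower ones, beside 6.44% of all genes. The others were Mrpl40 (-0.30, SE 0.14), Mrpl44 (-0.27, SE 0.17) and, named after their values were seen, Mrpl13 and Mrps31. Mrpl44, which belongs to the RNase III family, was at -0.14 without mouse A and -0.18 without mouse D. The most positive change, 0.37 (SE 0.23) in Mrps18b, came from 12.9, 12 and 8.18 CPM in WT and 13.2, 18 and 11.7 in KO, which overlapped, and was 0.17 without mouse C and 0.19 without mouse E. The stalk proteins had log2 fold changes of -0.012 for Mrpl10, 0.000 for Mrpl11 and -0.005 for Mrpl12, with intervals that reached 0.38 at most.

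**Figure D3:**
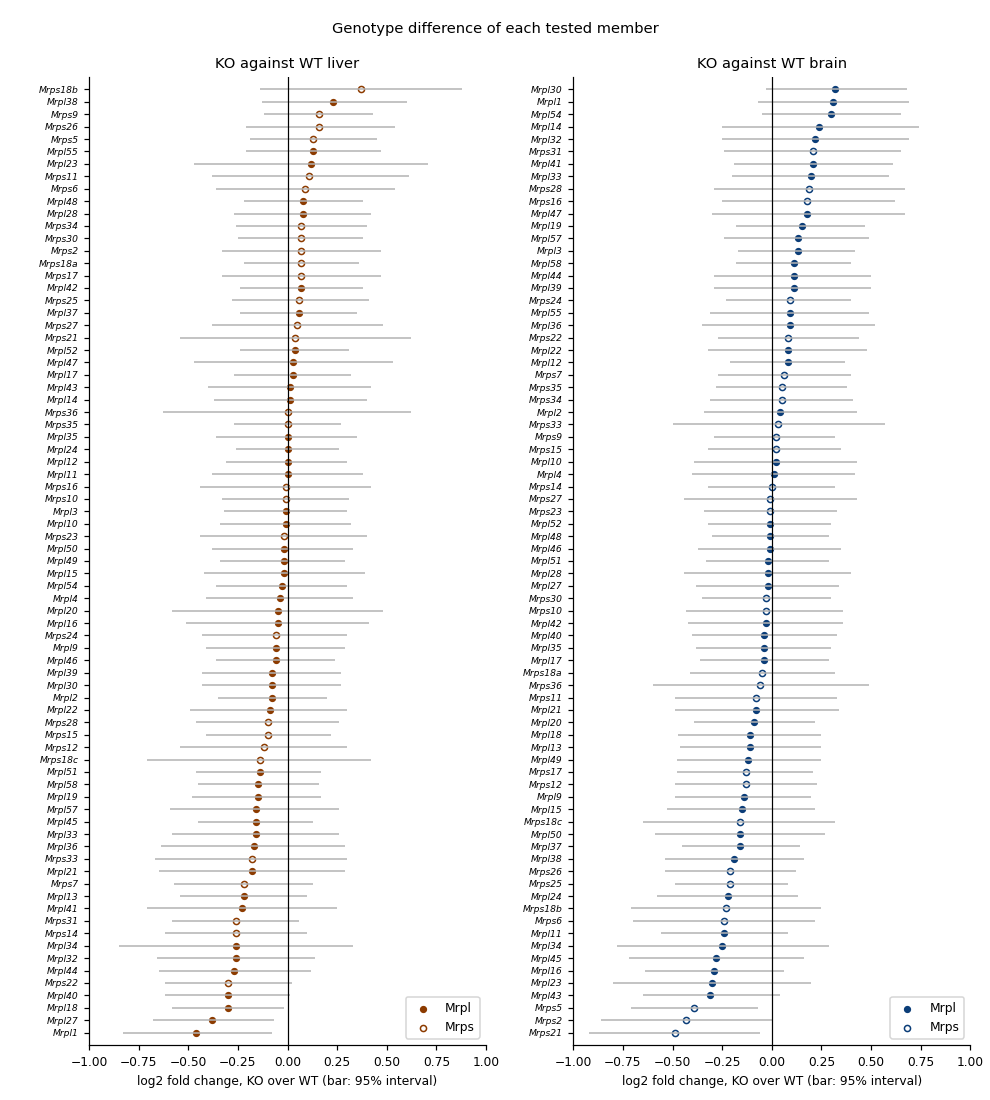
Log2 fold change of KO over WT for the 77 tested members in liver (left) and brain (right), ordered by value; filled circles are Mrpl genes, open circles Mrps genes, and grey bars 95% intervals from edgeR. Values run from -0.46 to 0.37 in liver and, in brain, lie between -0.49 and 0.32, none passed the adjusted test, and every interval stays within 1 log2 unit of 0.

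By symbol, the 48 tested Mrpl genes had a median of -0.052 in liver with 35 lower in KO, and the 29 Mrps genes a median of 0.004 with 14 lower. Large subunit proteins with a bacterial counterpart stood at -0.052 (23 of 30 lower) and those of mitochondria alone at -0.027 (12 of 20 lower), while the small subunit classes were at -0.012 and 0.028. Beside them the 77 tested genes of the cytosolic ribosomal proteins had a median of 0.087 and 78 genes of the respiratory chain one of -0.053. No gene of either list was called by edgeR or DESeq2. At an unadjusted p under 0.05 there were 2 and 1, beside 7.33% of all genes.

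In brain the same comparison again called none of the 77 members, where edgeR called 11 of 17188 genes (0.0640%) and DESeq2 1.58% of 16987, none of them members. The median was -0.018, beside -0.002 for all genes and -0.039 for protein-coding genes. Its sign depended on which mouse was left out. There were 33 members higher and 44 lower, with extremes of -0.49 and 0.32 and all 77 intervals within 1 log2 unit. An unadjusted p under 0.05 was reached by 2 members (2.60%), beside 11.0% of all genes, both lower in KO, beside 5.01% of all genes lower at that level. Libraries did not overlap in 14 members (18.2%), beside 16.3% of all genes, with 10 of them lower and 4 higher in KO, beside 7.94% and 8.41% of all genes.

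The 2 were proteins of the small subunit. Mrps5, at the entry of the mRNA channel, had 58.6, 76.1 and 59.5 CPM in WT brain and 47.7, 50.0 and 50.8 in KO brain, -0.39 on the log2 scale (SE 0.14; adjusted p = 0.395 by edgeR). Mrps21 had 15.8, 14.8 and 11.4 CPM in WT and 8.54, 10.9 and 10.3 in KO, with -0.49 (SE 0.19; adjusted p = 0.411). Both were below the WT libraries in all KO libraries, by a small margin in Mrps21, and both have a near-identical copy elsewhere. Mrps2 (-0.43, SE 0.19), Mrpl43 (-0.31, SE 0.16) and Mrpl23 (-0.30, SE 0.22) were the next lowest without overlap. For Mrpl23 the groups barely separated, with 5.21 CPM in KO mouse F against 5.22 in WT mouse B. Higher in KO without overlap were Mrpl54 (0.30, SE 0.16), Mrpl14 (0.24, SE 0.22), Mrpl19 (0.15, SE 0.14) and Mrpl58 (0.11, SE 0.13), and none of these passed the test. Mrpl14 was at 0.10 without mouse F and Mrpl19 at 0.056 without mouse A.

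Markers of brain regions also differed between the brain groups. All 11 cerebellum markers were lower in KO brain without overlap, with sums of 1173 to 1953 CPM in WT and 225 to 786 in KO, all 8 choroid plexus markers were lower, with sums of 232 to 396 CPM in WT and 116 to 186 in KO, and all 10 olfactory bulb markers were higher, with sums of 138 to 185 CPM in KO against 79.7 to 88.1 in WT. Their part in the members' values was not tested, and in whole tissue fewer cells of a type cannot be told apart from less RNA per cell. In liver the 8 hepatocyte markers split, 5 higher and 3 lower in KO, with sums of 76406 to 83691 CPM in KO inside the WT range.

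The share of all reads that fell on the members did separate the brain groups, with 0.170%, 0.191% and 0.170% in WT and 0.141%, 0.145% and 0.155% in KO. The mitochondrial rRNAs took 17.7%, 7.63% and 11.7% of reads in WT brain and 31.6%, 21.4% and 22.1% in KO brain, also without overlap and with KO the higher. After normalisation, in which a few very abundant RNAs carry little weight, the members' summed CPM overlapped, with 1656, 1685 and 1565 in WT and 1688, 1506 and 1590 in KO.

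**Figure D4:**
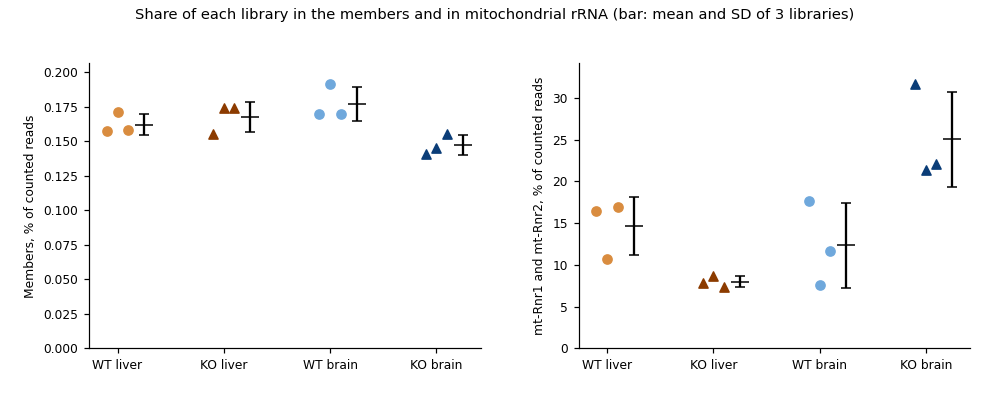
Left, share of assigned reads on the 78 members; right, share on mt-Rnr1 and mt-Rnr2, both in percent with axes from 0. Symbols are libraries and black bars the mean and SD of 3; in brain the KO libraries have a lower member share (0.141% to 0.155%) and a higher mitochondrial rRNA share (21.4% to 31.6%) than WT, and in liver the KO rRNA share (7.36% to 8.66%) is below WT.

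mt-Rnr1 and mt-Rnr2 are the RNA core on which these proteins assemble. In liver mt-Rnr2 was 118268, 54096 and 107620 CPM in WT and 35097, 39284 and 32803 in KO, -1.39 on the log2 scale (SE 0.28; adjusted p = 0.383 by edgeR), and mt-Rnr1 was at -0.50 (SE 0.18; adjusted p = 0.548). In brain mt-Rnr2 was 112155, 46210 and 63389 CPM in WT and 255597, 147431 and 135700 in KO, with 1.28 (SE 0.38; adjusted p = 0.355), and mt-Rnr1 was at 1.21 (SE 0.37; adjusted p = 0.355). The genotypes did not overlap for either rRNA in either tissue, in opposite directions, and none of these differences passed the edgeR test, nor did the difference between the tissues (adjusted p = 0.132 for mt-Rnr2 and 0.237 for mt-Rnr1). Other settings did call some of them. DESeq2 called mt-Rnr2 in liver (adjusted p = 8.05e-05), both rRNAs in brain (0.0125 for mt-Rnr2 and 0.0206 for mt-Rnr1) and both differences between the tissues (0.000257 and 0.0162). Without the filter edgeR called both rRNAs in both tissues, and without WT mouse D it called mt-Rnr2 in liver (adjusted p = 0.0208). With the mouse as a block, the difference between the tissues passed for mt-Rnr2 (-2.59, adjusted p = 0.0540). The library kit removes rRNA after conversion to cDNA, and how far that step varied between the libraries was not tested.

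The other 74 genes of mitochondrial translation on the lists held no called gene in either tissue by edgeR or DESeq2. An unadjusted p under 0.05 was found for 6 in liver and 4 in brain, beside 7.33% and 11.0% of all genes. The 5 subunits with other symbols (Dap3, Ptcd3, Chchd1, Aurkaip1 and Gadd45gip1) had medians of -0.055 in liver and -0.038 in brain, and their smallest p belonged to Ptcd3 (-0.08, SE 0.13) and Aurkaip1 (-0.25, SE 0.14). The 15 translation factors had medians of -0.189 and -0.008; Guf1, the back-translocating GTPase, was at -0.42 (SE 0.16) in liver, and Tsfm, the exchange factor of the elongation factor Tufm, at -0.53 (SE 0.19) in brain, without passing the test. Of these 15 factors, 6 lay below WT without overlap in liver and 1 above, beside 6.44% of all genes below and 12.9% in either direction, and in brain 1 lay below and 0 above, beside 16.3% in either direction. The 17 aminoacyl-tRNA synthetases had medians of 0.040 and 0.034, with the smallest p for Pars2 in liver (1.02, SE 0.36) and Wars2 in brain (0.52, SE 0.22).

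The 26 assembly and rRNA modification genes had medians of 0.10 and -0.049, led by Rcc1l in liver (0.40, SE 0.16) and Mpv17l2 in brain (-0.74, SE 0.24). Among 11 genes of mitochondrial transcription and its regulators, with medians of -0.027 and -0.081, the smallest p belonged to Pprc1 in liver (0.50, SE 0.14; edgeR adjusted p = 0.450) and Esrra in brain (-0.42, SE 0.20; adjusted p = 0.466), which code for a coactivator and a nuclear receptor of mitochondrial biogenesis. Beside them the cytosolic ribosomal protein genes had a median of 0.198 in brain, with 66 of 76 higher in KO, none called by either tool and 5 at an unadjusted p under 0.05. Over all genes tested in brain 8558 were higher and 8630 lower in KO, and 11.0% were at that level.

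Whether the genotype difference itself differed between the tissues was tested over all 12 libraries. None of the 77 members passed, where 0% of 18944 genes did in edgeR, and DESeq2 called none of them while it called 2.08% of its genes. At an unadjusted p under 0.05 there were 2, beside 10.6% of all genes. They were Mrpl1, whose difference of liver minus brain was -0.73 (SE 0.25; adjusted p = 0.348), from -0.46 in liver and 0.31 in brain, and Mrps5, with 0.55 (SE 0.21; adjusted p = 0.393). Next to them on the negative side stood Mrpl32 (-0.46), Mrps31 (-0.43), Mrpl41 (-0.41) and Mrpl30 (-0.37), and on the positive side Mrps18b (0.63), Mrps21 (0.57), Mrps2 (0.53) and Mrpl23 (0.46), none of which passed the test. Leaving out 1 mouse moved Mrpl41 between -0.66 (mouse B) and -0.15 (mouse D), Mrpl30 between -0.58 (mouse C) and -0.19 (mouse A) and Mrps18b between 0.36 (mouse E) and 0.81 (mouse D), and Mrpl23 was at 0.30 without mouse D.

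The largest differences of the members were between the organs, a comparison in which the tissue of origin and everything that goes with it cannot be told apart. In WT mice 58 of 77 members (75.3%) were higher in liver and 5 (6.49%) lower, beside 34.8% and 43.6% of the 18944 genes tested, and the median log2 fold change was 0.748, beside -0.209 over all genes. In KO mice 62 (80.5%) were higher and 5 lower, beside 35.5% and 44.6% of all genes, with a median of 0.682. Of the 58 members higher in WT liver, 56 were also called higher in KO liver, in other animals. The calls changed with an offset for GC content and exon length in each library. With it 36 were higher and 21 lower in WT, beside 38.6% and 44.6% of all genes. In KO 34 were higher and 22 lower, beside 37.9% and 45.3%. The offset takes both properties together and also removes any tissue difference that follows them. Sequence bias and a difference between the tissues therefore cannot be told apart here. The medians with the offset were 0.28 in WT and 0.11 in KO, beside -0.20 and -0.25 over all genes. All members are protein-coding, and over the 14956 protein-coding genes tested these medians were 0.09 and 0.05. Of those genes 6569 were called higher and 6064 lower in WT, and 6465 and 6225 in KO.

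Mrpl14, a protein at the interface of the subunits, showed the largest difference without the offset. Its level per kb was 21.5, 17.6 and 20.6 in WT liver and 17.1, 19.6 and 24.9 in KO liver, against 3.94, 3.77 and 3.92 in WT brain and 4.10, 4.19 and 5.40 in KO brain. No brain library came near a liver library, the log2 fold changes were 2.36 (SE 0.19; edgeR adjusted p = 6.05e-08) in WT and 2.17 (SE 0.19) in KO, and with the offset they were 1.97 and 1.55. With the offset Mrpl15 had the largest values, 2.11 in WT and 2.60 in KO, against 1.17 and 1.34 without it, and Mrps35 (1.98 and 2.03) also stood above Mrpl14. In KO Mrpl17 (2.15), Mrpl38 (2.0), Mrps30 (1.63), Mrpl13 (1.58) and Mrps10 (1.56) did so too; all but Mrpl38 were named after their values were seen. Mrps7, which contacts the small rRNA near the mRNA exit, was at 30.4, 32.9 and 22.7 in WT liver and 7.54, 9.76 and 7.85 in WT brain (1.77, SE 0.16). Mrpl38 (1.58, SE 0.17), Mrpl34 (1.54, SE 0.27) and Mrpl22 (1.53, SE 0.18) followed. With the offset Mrps7 was at 1.18, Mrpl38 at 1.91, Mrpl34 at 0.90 and Mrpl22 at -0.01. In KO mice Mrps18b (2.10, SE 0.23), Mrpl38 (2.04, SE 0.18), Mrps2 (1.69, SE 0.20) and Mrpl16 (1.62, SE 0.20) came next to Mrpl14, and stood at 0.96, 2.0, 0.86 and 1.22 with the offset.

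Without the offset 5 members were called higher in brain in WT and 5 in KO, against 21 and 22 with it. Mrps25 had levels of 3.92, 3.35 and 3.83 in WT liver and 8.32, 8.98 and 7.29 in WT brain, a difference of -1.15 on the log2 scale (SE 0.15; adjusted p = 7.47e-06 by edgeR), and in KO -0.85 (SE 0.15). The others in WT were Mrpl48 (-0.93, SE 0.13), Mrps6 (-0.70, SE 0.21), Mrps26 (-0.63, SE 0.17) and Mrpl3 (-0.37, SE 0.14). Mrps25, Mrpl48 and Mrpl3 were called in KO as well, beside Mrpl41 (-0.66, SE 0.21) and Mrpl19 (-0.28, SE 0.14). With the offset Mrps25 (-0.58), Mrps26 (-0.72) and Mrps6 (-2.0) remained called lower in WT liver, whereas in KO, of the 5, only Mrpl41 did (-2.18). Called lower in WT liver with the offset alone were, among others named after their values were seen, Mrpl41 (-1.76), Mrps21 (-1.54), Mrps33 (-1.40) and Mrps36 (-1.35). The call of Mrpl19 in KO was also lost when the mouse was kept as a block (adjusted p = 0.161), its value being -0.18 without mouse A, and that of Mrpl41 without mouse A (adjusted p = 0.112).

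**Figure D5:**
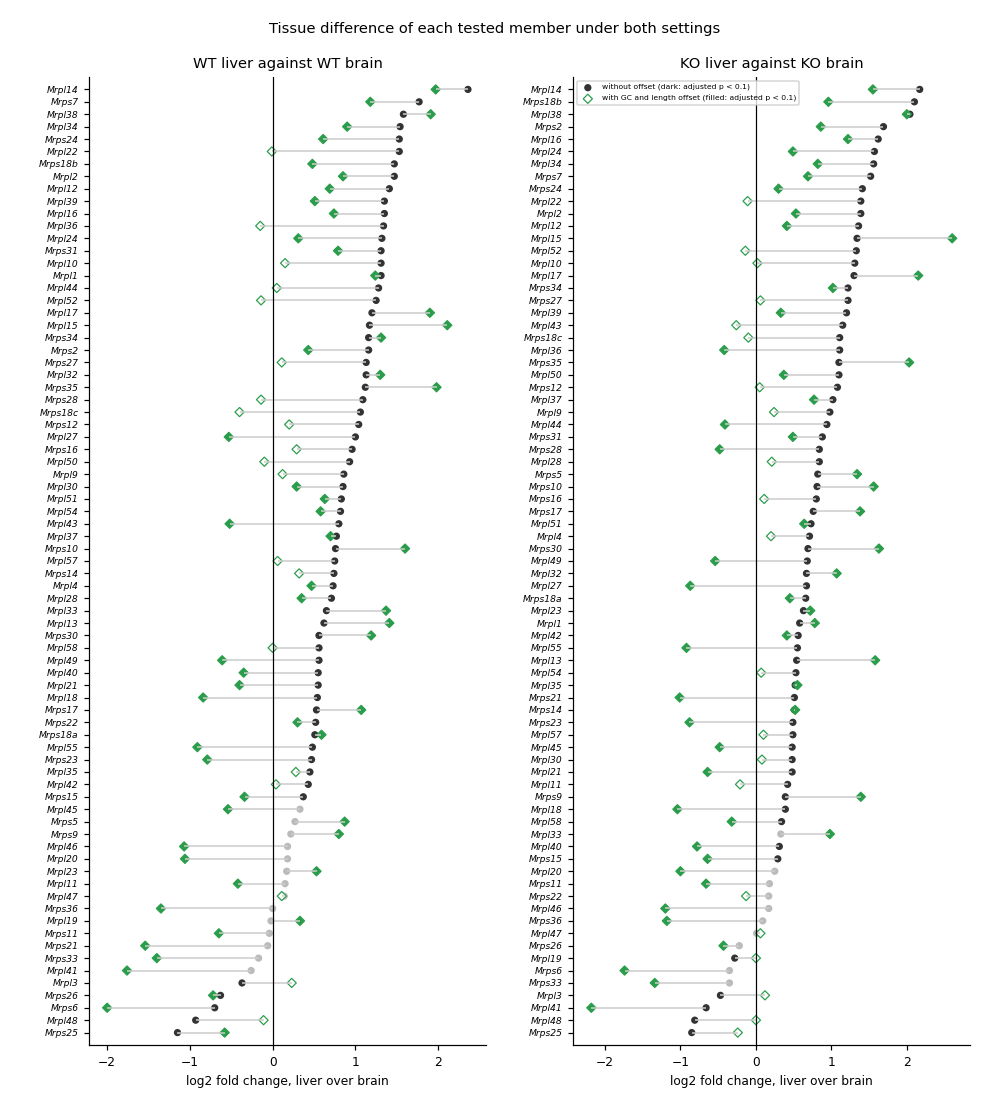
Log2 fold change of liver over brain for each tested member in WT (left) and KO mice (right). Circles are the values without and green diamonds those with an offset for GC content and exon length, dark or filled where the adjusted p is under 0.1. Most circles lie to the right of 0 with medians of 0.748 and 0.682, and the diamonds spread to both sides with medians of 0.28 and 0.11.

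The members differ in length, from 607 to 8631 bases of exon, and in GC content, from 38.6% to 60.4%, with a median length of 2533 bases among those tested against 3808 over all genes tested. Across members the WT tissue difference correlated with r = 0.24 with GC content and -0.28 with log2 length, a description with shared libraries. Of the 58 members called higher in WT liver, 32 stayed so with the offset, 17 lost the call and 9 were called lower, among them Mrpl18, Mrpl27 and Mrpl43. Of the 5 members with the largest difference, Mrpl14, Mrps7, Mrpl38 and Mrpl34 stayed higher and Mrpl22 did not.

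The other lists of mitochondrial translation had positive medians as well, to be read against the 34.8% of all genes called higher in WT liver and 43.6% called lower. In WT mice 13 of 15 translation factors were called higher and none lower (median 1.05), 13 of 17 aminoacyl-tRNA synthetases higher and 2 lower (0.784), 12 of 26 assembly genes higher and 2 lower (0.359), and 3 of the 5 other subunits higher (0.446). With the offset the counts were 10 higher and 1 lower of the factors, 13 and 2 of the synthetases, 13 and 7 of the assembly genes and 3 and 2 of the other subunits. The nuclear-encoded respiratory chain genes, whose products join those of this machinery, had a median of 0.852 with 61 of 81 higher, and the cytosolic ribosomal protein genes 0.642 with 51 of 77 higher. Both medians turned with the offset, to -0.10 with 29 higher and 32 lower and to -0.07 with 16 higher and 30 lower.

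Members named for their roles also depended on the offset. The stalk proteins Mrpl10 (1.31, SE 0.17) and Mrpl12 (1.41, SE 0.14) were called higher in WT liver and Mrpl11 was at 0.15 (SE 0.16). With the offset Mrpl10 was at 0.15 and lost the call (edgeR adjusted p = 0.437), Mrpl12 kept it at 0.69, and Mrpl11 was called lower at -0.42. All 3 S18 paralogs were called higher without the offset, Mrps18b at 1.47 (SE 0.22), Mrps18c at 1.06 (SE 0.23) and Mrps18a at 0.51 (SE 0.15). With it Mrps18a (0.59) and Mrps18b (0.48) kept the call in the opposite order, and Mrps18c turned to -0.40 and lost it (adjusted p = 0.117). Mrpl58, at 0.56 (SE 0.13), was at 0.00 with the offset (adjusted p = 0.984).

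Shared starts were also set beside the tissue difference. Of 29 members whose partner was tested, both genes were called in WT tissue for 18, in the same direction for 13 and in opposite directions for 5, and with the offset for 14, in the same direction for 8 and in opposite directions for 6. Mrpl36 and Ndufs6 stood at 1.34 and 1.40, Mrps12 and Sars2 at 1.04 and 1.09, and Mrpl48 and Rab6a at -0.93 and -1.85, while Mrps7 (1.77) and Gga3 (-1.37) went opposite ways. With the offset Mrpl36 (-0.15), Mrps12 (0.20) and Mrpl48 (-0.11) lost their calls and Mrps7 (1.18) kept its call. No share over other pairs of genes was computed, so the counts describe these pairs only.

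By promoter letters, the 8 members with the NRF1 letters had a median of 1.26 in WT tissue, with a range of 0.65 to 1.53, beside 0.56 for the 60 other members with a promoter. With the offset the median was 0.49, with a range of -0.01 to 1.90, beside 0.08. The 25 members with the ETS letters had a median of 0.75 beside 0.71, and 0.00 beside 0.29 with the offset. Without and with the offset, members with the YY1 letters had medians of 0.64 and 0.19, beside 0.73 and 0.13 for those without them. The SP letters gave 0.55 and 0.25, beside 0.80 and 0.12, and TATAAA, in 5 members, 0.53 and 0.61, beside 0.74 and 0.12. These splits were made after the values were seen and are descriptions of these libraries.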

How the data were processed

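Libraries of total RNA (SMARTer Stranded Total RNA-Seq Kit v2) were read single-end on a NovaSeq6000. The authors trimmed with Trimmomatic, used STAR 2.7.3a against mm10, and deposited raw counts per gene made by featureCounts over exons with strand; FastQC 0.11.5 and bcl2fastq are also in the submitters' processing notes. No option for reads that fit several places or genes is stated, so the program's default, which leaves them out, was assumed. Samples were grouped by the labels, with the mouse letter as replicate. Counts were normalised by TMM and tested with edgeR 4.0.16 (R 4.3.3; filterByExpr, robust quasi-likelihood fit), with genotype within a tissue on 6 libraries and the other comparisons on 12. P-values were adjusted by Benjamini-Hochberg across every gene in the fit and called under 0.1; standard errors and 95% intervals come from the same fit. The edgeR fit of genotype within a tissue was tested on simulated counts. These had the same dispersion for every gene and no shifts between animals, a simpler setting than these data. They therefore do not tell which differences could be found here. Alternatives were DESeq2 1.42.0, RLE factors, no filter, all 12 libraries, a covariate for Y-linked reads, an offset for GC content and exon length, the mouse as a block (also with the offset), and leaving out each mouse. The offset for the difference between tissues and the block with the offset within each genotype were added after seeing the data. Levels per kb divide CPM by the union of annotated exons. Near-identical copies were transcripts of other genes with at least 95% identity over 100 bases and 20% of the member's transcript (BLAST+ 2.17.0). Promoters came from RefSeq.

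The mouse letters in the labels pair liver and brain of the same animal, so the block values are paired; deviations of the 2 libraries of a mouse from their group means correlated by -0.0566 to 0.126 over 12574 genes. The limit given for a count of 0 covers counting error only. The members and gene lists were chosen with earlier results of these data known. Named were Mettl5; in each genotype comparison, called members or, as fewer than 10 were called, the 5 highest and 5 lowest changes among members without overlap of the libraries; the 5 highest and 5 lowest tissue differences among called members and differences of genotype effects; the 5 highest and 5 lowest levels; members by role; and in each pathway list the called gene or that of smallest p. Printed promoters and partners at shared starts were chosen after their values were seen.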

Additional observations from a re-analysis of the deposited data

Results flagged for a closer look

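The 5 pseudogenes of the members took no part in the comparisons. Mrpl23-ps1 had 4 reads in 1 KO liver library, above the highest WT liver library with 3 reads and above the 3 reads that a count of 0 allows; the KO liver libraries ranged from 1 to 4 reads. Mrpl48-ps reached 5 reads in a WT brain library and Mrps36-ps1 4 in a WT liver library, and the 2 other pseudogenes had no more than 1. Groups of 3 libraries were not searched for single outlying samples.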

How the results depend on the processing

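No member was called in either genotype comparison or in their difference between tissues under any alternative run, leaving out each mouse included. Over all genes the count of calls was 0 in liver by edgeR, 171 by DESeq2, 443 without the filter, 82 with the Y-linked covariate, 87 without mouse D and 3 with all 12 libraries. In brain it was 11 by edgeR, 269 by DESeq2, 1000 without the filter, 93 with the offset and, without 1 mouse, from 2 (mouse E left out) to 23 (mouse C left out). For the difference between tissues it was 0 by edgeR, 369 by DESeq2, 183 without the filter, 55 with the offset, 86 without mouse D, 68 with the mouse as replicate block and 77 with block and offset. With the replicate block the members called between tissues were 63 in WT and 64 in KO, and with block and offset 54 and 53. Leaving out 1 mouse gave 58 to 64 in WT and 52 to 66 in KO, lowest without mouse C. Among called members the share higher in liver was 92.1% in WT and 92.5% in KO, and 63.2% and 60.7% with the offset. The members' median in liver ranged from -0.123 (without mouse C) to 0.014 (without mouse A), and in brain from -0.065 to 0.029, when 1 mouse was left out.

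Of 792 single-gene values over 66 results, 725 kept direction and side of the threshold, 16 lost and 19 gained the call, and 32 changed sign; the cause was not tested. In liver Mrpl10 (-0.012) was at 0.001 without the filter, 0.009 with the offset and 0.016 with all 12 libraries, Mrpl11 at -0.001 with the Y-linked covariate, Mrpl12 (-0.005) at 0.009, 0.004 and 0.024 without the filter, with that covariate and with all 12 libraries, and Mrps18c (-0.14) at 0.001 with the offset. In brain Mrpl10 (0.018) was at -0.006 without the filter and Mrps18a (-0.046) at 0.14 with the offset. Without 1 mouse, liver values ran from -0.10 to 0.081 for Mrpl10, -0.093 to 0.13 for Mrpl11, -0.11 to 0.064 for Mrpl12 and -0.38 to 0.057 for Mrps18c, and brain values from -0.13 to 0.15 for Mrpl10 and -0.14 to 0.086 for Mrps18a. Between tissues, the offset without and with the replicate block turned Mrpl3 from -0.37 to 0.23 and 0.23 in WT and from -0.47 to 0.12 and 0.11 in KO, and Mrpl22 in WT from 1.53 to -0.006 and -0.020, and block with offset put Mrpl19 in KO (-0.28) at 0.000.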
